A study of Homo sapiens with 6 samples.

Results

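THP1 is a monocytic acute myeloid leukaemia line. Cells grown for 48 hours on a coating of Dll4-Fc, a fusion of the Notch ligand DLL4 with an antibody Fc, were set against untreated cells, with 3 arrays per group. The sample labels give the coating as 60 nM and the protocol as 30 nM, and the protocol calls the control vehicle. The labels name no Fc-only well and do not tie replicates to separate cultures: the p-values rest on the spread between these arrays alone, and that spread may be technical. The subject is 8 genes of the caspase machinery: the caspase genes CASP2, CASP6, CASP8, CASP9 and CASP10, the apoptosome gene APAF1, the caspase inhibitor gene XIAP and the caspase 8 regulator gene CFLAR. They were chosen by name, with earlier results of these data known. They are 8 of the 19775 genes on the Affymetrix Human Genome U133 Plus 2.0 array that have a probe set with exactly 1 gene symbol, and they hold 43 of the 54613 probe sets tested.

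Caspases are proteases that dismantle a cell during apoptosis. Death receptors recruit the initiators caspase 8 and caspase 10, and CFLAR, a caspase 8 relative that lacks protease activity, joins them and sets how far they are activated. Damaged mitochondria release cytochrome c, which assembles APAF1 into the apoptosome that activates caspase 9. Initiators then cleave executioner caspases, while XIAP binds and inhibits caspases directly.

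On Dll4-Fc, XIAP rose and CASP6 and CASP2 fell, all by less than 2-fold, and the genes that start the cascade gave small differences that did not pass. XIAP was 1.29-fold higher (log2 difference 0.36 ± 0.06, standard error, n = 3 arrays per group). CASP6, an executioner caspase gene, was 1.32-fold lower (-0.40 ± 0.09), and CASP2, which encodes a stress-activated caspase, was 1.20-fold lower (-0.26 ± 0.06). For CFLAR, the probe set that stood for the gene did not pass, while 2 others fell 1.41-fold and 1.44-fold. At the gene level, with the brightest probe set standing for each gene, 1 of the 8 genes rose and 2 fell in the limma fit over all genes (threshold on the adjusted p: 0.05), which makes 37.5%. Over all genes 26.6% passed, 11.6% higher and 15.0% lower. The higher ones made 43.7% of all calls, and 53.7% after cyclic loess normalization. With dim genes (below the median probe set signal) left out, 3 of the 8 still passed, against 43.8% of all genes. The median difference was -0.07 over the 8 genes and -0.01 over all genes. The groups did not overlap for 5 of the 8 genes, against 41.6% of all genes.

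For each of the 3 genes that passed, 1 promoter window that holds the motif searched for is shown, because the ligand on the plate acts through RBPJ, the DNA-binding factor of the Notch pathway, whose core motif TGGGAA was sought on both strands. Each window runs from 250 bases before to 50 bases after a transcription start annotated by RefSeq (build GRCh38.p14) and reads 5' to 3' on the gene's strand. Capitals mark TGGGAA or its reverse complement TTCCCA. The XIAP window shown is chrX:123859458-123859757 on the plus strand. The CASP6 window is chr4:109703396-109703695 on the minus strand. The CASP2 window shown is chr7:143288101-143288400 on the plus strand.
XIAP: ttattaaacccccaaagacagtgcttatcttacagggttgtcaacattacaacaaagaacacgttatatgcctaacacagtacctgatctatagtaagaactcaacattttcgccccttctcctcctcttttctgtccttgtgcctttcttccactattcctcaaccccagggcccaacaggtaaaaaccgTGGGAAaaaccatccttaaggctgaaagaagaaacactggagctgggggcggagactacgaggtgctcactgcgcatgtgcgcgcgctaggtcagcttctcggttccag
CASP6: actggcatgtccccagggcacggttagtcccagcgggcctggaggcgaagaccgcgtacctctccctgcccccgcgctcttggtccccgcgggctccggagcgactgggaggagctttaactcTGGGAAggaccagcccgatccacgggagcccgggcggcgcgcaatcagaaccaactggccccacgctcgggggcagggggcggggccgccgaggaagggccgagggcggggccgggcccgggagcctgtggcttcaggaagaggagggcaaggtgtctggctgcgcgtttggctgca
CASP2: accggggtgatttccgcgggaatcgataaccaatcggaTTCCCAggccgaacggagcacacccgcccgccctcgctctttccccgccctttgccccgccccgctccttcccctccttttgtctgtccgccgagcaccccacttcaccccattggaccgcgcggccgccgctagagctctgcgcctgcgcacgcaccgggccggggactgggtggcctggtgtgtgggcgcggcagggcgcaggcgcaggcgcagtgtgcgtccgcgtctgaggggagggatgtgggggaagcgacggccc

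The XIAP and CASP2 windows shown hold the first base of the gene in the RefSeq gene table, while the CASP6 window lies at another annotated start. The motif began at position -59 from the start in the XIAP window and at -127 in the CASP6 window. In the CASP2 window it began at -212, on the opposite strand. Of 16 windows found for 7 of the 8 genes, 6 held it (37.5%), against 24.0% of all 35116 windows. XIAP has 3 windows, of which 2 overlap and share the same copy, and the third, chrX:123859803-123860102, held none. CASP2 has 2 windows, and the second, chr7:143289338-143289637, held none. It was also in a window of CASP8 and of APAF1, which did not pass. The interferon-stimulated response element core, searched in the same way, was in 1 of the 16 windows, at CASP8, against 3.57% of all windows. The NF-kB core was in 7 of 16, against 25.6% of all. None of these matches was tested for binding.

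Arrays correlated across genes at r = 0.997 to 0.999 within groups and at 0.981 to 0.985 between groups. Of the monocytic markers with a value, LYZ, SPI1, CSF1R and MPO, all 4 lay above the median probe set signal of 5.70 in both groups. The log2 of their summed signal was 13.84 to 14.06 on Dll4-Fc and 11.97 to 12.10 in untreated cells. LYZ, the brightest, carried this sum (13.87 on Dll4-Fc, 11.87 in untreated cells). CSF1R rose by 1.75 and SPI1 by 0.31, while MPO fell by 0.79 (adjusted p = 0.00183). T cell markers (4 genes) summed to 7.29 to 7.37 on Dll4-Fc and 7.22 to 7.37 in untreated cells, erythroid markers (2) to 6.90 to 7.13 and 7.18 to 7.24, fibroblast markers (3) to 8.19 to 8.30 and 8.04 to 8.21, and epithelial markers (3) to 5.50 to 5.70 and 5.62 to 5.74. B cell markers (3) summed to 8.12 to 8.39 on Dll4-Fc and 7.90 to 7.94 in untreated cells, and went apart: PAX5 rose by 0.60 ± 0.10, while CD79A differed by -0.08 (adjusted p = 0.738) and MS4A1 by -0.19 (adjusted p = 0.206). The part of these shifts in the results was not tested. The 3' minus 5' log2 signal of GAPDH averaged 0.39 on Dll4-Fc and 0.38 in untreated cells (exact permutation p = 0.9, 2-sided), and that of ACTB 0.67 and 0.72 (exact permutation p = 0.2). With 3 arrays against 3 the smallest possible p is 0.1. In bulk RNA, a change in the number of cells that express a gene and a change in RNA per cell cannot be told apart.

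**Figure D1:**
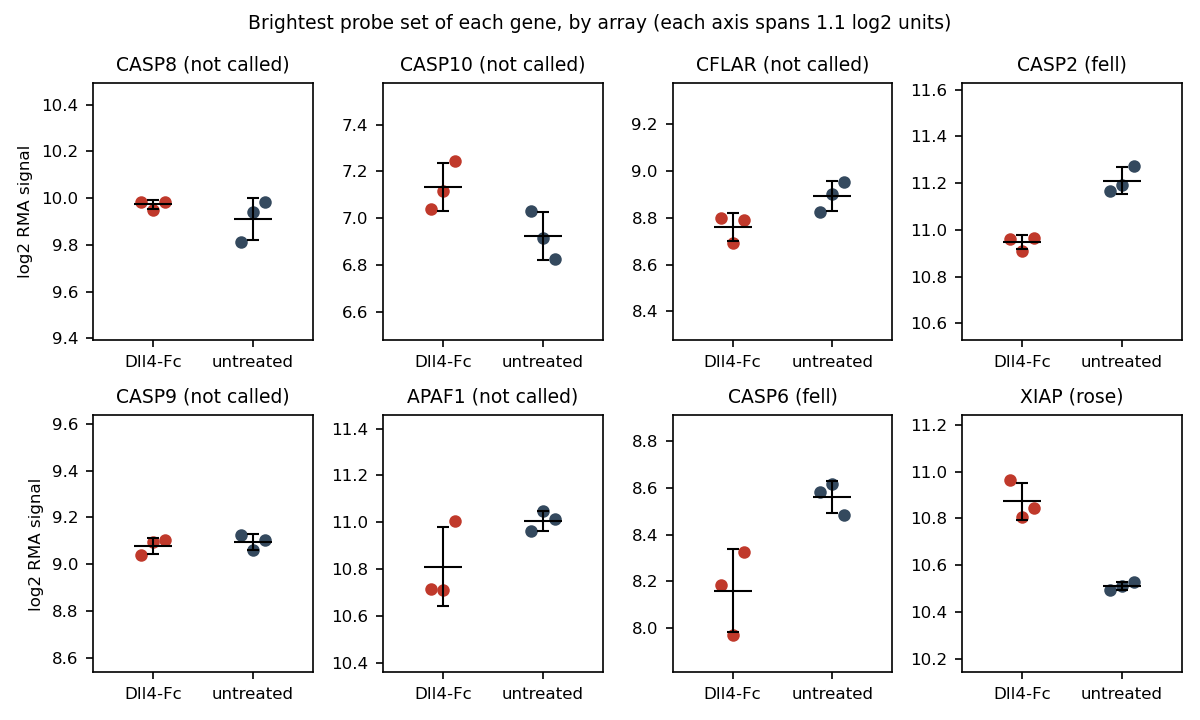
Log2 RMA signal of the brightest probe set of each gene in the 3 Dll4-Fc arrays (red, left) and the 3 untreated arrays (dark, right), with the group mean and SD as black bars; every axis spans the same range. All Dll4-Fc arrays lie above all untreated arrays for XIAP and CASP10 and below them for CASP6, CASP2 and CFLAR.

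XIAP, the inhibitor, rose. Its brightest probe set, 228363_at, stood at 10.96, 10.81 and 10.85 in the Dll4-Fc arrays and at 10.49, 10.51 and 10.53 in the untreated arrays on the log2 scale. Every Dll4-Fc array lay above every untreated array, and the untreated arrays hardly differed from each other. The means were 10.87 ± 0.08 on Dll4-Fc and 10.51 ± 0.02 in untreated cells (SD, n = 3 each), and limma gave an adjusted p of 0.00377 over all genes. It passed in each leave-one-out fit, with differences of 0.32 to 0.39 and adjusted p of 0.00866 to 0.0177.

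All 7 XIAP probe sets were higher on Dll4-Fc, by 0.11 to 0.51, and the groups did not overlap for 6 of them. All 7 stayed higher with cyclic loess and with median centring. In the fit over all probe sets, 3 of the 7 passed as higher. Over all probe sets 16.5% passed, 7.21% higher and 9.26% lower, and the groups did not overlap for 33.2%. The 3 were 228363_at (0.36 ± 0.07, adjusted p = 0.00853), 206536_s_at (0.51 ± 0.11, adjusted p = 0.0133) and 235222_x_at (0.26 ± 0.07, adjusted p = 0.0357). Probe set 206536_s_at read 6.59, 6.34 and 6.40 on Dll4-Fc and between 5.74 and 6.05 in untreated cells, again without overlap. It passed in 5 of the 6 leave-one-out fits, failing without Dll4-Fc replicate 1 (adjusted p = 0.0542). Probe set 235222_x_at failed in all 6 (adjusted p = 0.0539 to 0.129). Probe sets of a gene share its transcripts and are not replicates of the treatment. Those whose names end in _s_at, _x_at or _a_at can match more than 1 transcript and are called shared; 29 of the 43 were of this kind and 14 were not.

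Caspase 8 and caspase 10, the death receptor initiators, gave no difference past the threshold. CASP8 read 9.98, 9.95 and 9.98 on Dll4-Fc and 9.81, 9.94 and 9.98 in untreated cells. The groups overlapped, the difference was 0.06 with a 95% interval of -0.08 to 0.21, and the adjusted p was 0.554. None of its 3 probe sets passed, nor did any reach an unadjusted p under 0.05.

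CASP10 read 7.04, 7.11 and 7.25 on Dll4-Fc and 7.03, 6.91 and 6.82 in untreated cells. All Dll4-Fc arrays were higher, although the lowest of them lay only just above the highest untreated array. The difference was 0.21 ± 0.08 with a 95% interval of 0.03 to 0.40 and an adjusted p of 0.0946. It passed as higher after cyclic loess normalization (0.27, adjusted p = 0.0345) and under none of the other alternatives. All 4 CASP10 probe sets were higher on Dll4-Fc, by 0.05 to 0.22, and 3 of them lay below the median signal. None passed, and 1 had an unadjusted p under 0.05.

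CFLAR, the regulator that pairs with caspase 8, did not pass at its brightest probe set, while 2 of its other probe sets fell. CFLAR, CASP10 and CASP8 are consecutive protein-coding genes on chromosome 2 in the RefSeq gene table. The brightest CFLAR probe set, 211316_x_at, read 8.80, 8.69 and 8.79 on Dll4-Fc and 8.82, 8.90 and 8.95 in untreated cells. All Dll4-Fc arrays were lower, but by little: the gene-level difference was -0.13 ± 0.06 and the adjusted p was 0.167. Of its 14 probe sets 2 fell and 12 did not pass. Probe set 235427_at read 6.89, 6.58 and 6.86 on Dll4-Fc and 7.39, 7.26 and 7.27 in untreated cells (-0.53 ± 0.10, adjusted p = 0.0075). Probe set 239629_at read 7.54, 7.26 and 7.33 on Dll4-Fc and 7.80, 7.81 and 8.01 in untreated cells (-0.49 ± 0.10, adjusted p = 0.0103). For both, the highest Dll4-Fc array lay well below the lowest untreated array. Both passed in all 6 leave-one-out fits, with adjusted p of 0.0158 to 0.0306 for 235427_at and of 0.0118 to 0.042 for 239629_at.

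These 2 are the only CFLAR probe sets that are both not shared and above the median signal. The other 2 that are not shared lay at means of 3.41 and 3.49, well below the median signal, and differed by -0.09 and -0.03. The 10 shared CFLAR probe sets differed by -0.24 to 0.09, with 7 lower and 3 higher (1 changed sign with cyclic loess and another with median centring), and the smallest adjusted p among them was 0.0672. With shared probe sets left out for all genes, 239629_at stood for CFLAR and the gene passed as lower (-0.49, adjusted p = 0.00689).

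**Figure D2:**
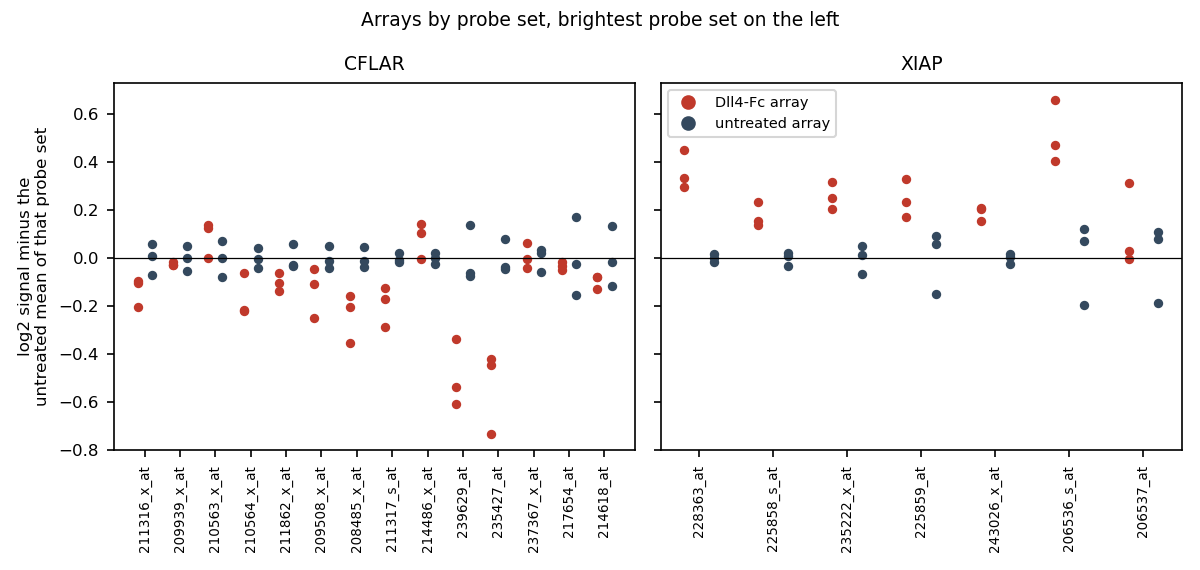
Log2 signal of each array minus the untreated mean of the same probe set, for the 14 CFLAR probe sets (left) and the 7 XIAP probe sets (right), Dll4-Fc arrays in red left of untreated arrays in dark. The 2 CFLAR probe sets that passed, 239629_at and 235427_at, stand below the others, while the Dll4-Fc arrays of XIAP lie above 0 for 6 of 7 probe sets without overlap.

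The difference between probe sets of a gene was tested by fitting each probe set's log2 signal minus that of the gene's brightest probe set, for all 21316 such pairs. This test was chosen after the CFLAR values were seen. Relative to 211316_x_at, 235427_at fell by 0.40 ± 0.10 (adjusted p = 0.0466) and 239629_at fell by 0.36 ± 0.09 (adjusted p = 0.0432). Of 35 pairs among the 8 genes 3 passed, against 10.0% of all pairs. The share among the 8 genes was thus not above the background. These calls sat near the threshold. With 1 array left out, 235427_at passed only without untreated replicate 3 (adjusted p = 0.0452) and otherwise had adjusted p of 0.0863 to 0.153, and 239629_at passed in none of the 6 fits (adjusted p = 0.0614 to 0.142).

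CASP2, whose product is activated by cell stress and DNA damage, fell. Its brightest probe set, 226032_at, read 10.96, 10.91 and 10.96 on Dll4-Fc and 11.17, 11.19 and 11.28 in untreated cells. The groups were well separated, with means of 10.95 ± 0.03 on Dll4-Fc and 11.21 ± 0.06 in untreated cells (SD, n = 3 each). The gene-level adjusted p was 0.0109, and it stayed under the threshold with any array left out (0.0222 to 0.0476). In the fit over all probe sets 226032_at had an adjusted p of 0.0266, and it did not pass when any 1 array was left out (0.0501 to 0.0986). All 7 CASP2 probe sets were lower on Dll4-Fc, by 0.08 to 0.35, and all 7 stayed lower with cyclic loess and with median centring. In the main fit 226032_at alone passed, and 4 had an unadjusted p under 0.05. After cyclic loess 226032_at did not pass in the fit over all probe sets (adjusted p = 0.0619). The probe set with the widest difference, 34449_at, read 6.91, 6.64 and 6.84 on Dll4-Fc and 7.35, 7.17 and 6.90 in untreated cells, where the third untreated array overlapped the Dll4-Fc group. In the test between probe sets none of the 6 other CASP2 probe sets differed from 226032_at (smallest adjusted p = 0.248), and none had an unadjusted p under 0.05.

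The apoptosome pair, CASP9 and APAF1, did not pass. CASP9, the initiator of the mitochondrial route, read 9.04, 9.09 and 9.10 on Dll4-Fc and 9.12, 9.06 and 9.10 in untreated cells. The groups overlapped almost fully, and the difference was -0.02 with a 95% interval of -0.14 to 0.11. Its sign depended on the normalization, with 0.05 after cyclic loess. The other CASP9 probe sets differed by -0.08 and -0.06 and did not pass; no CASP9 probe set had an unadjusted p under 0.05.

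APAF1, the scaffold of the apoptosome, read 10.71, 10.71 and 11.00 on Dll4-Fc and 10.96, 11.05 and 11.01 in untreated cells. Dll4-Fc replicate 3 lay among the untreated arrays, while the other Dll4-Fc arrays lay below all of them. The difference was -0.20 ± 0.09 with an adjusted p of 0.155. Without Dll4-Fc replicate 3 it was -0.30 and passed (adjusted p = 0.0163), as it did with array weights (-0.26, adjusted p = 0.031) and with a trended robust prior (-0.20, adjusted p = 0.039). The second APAF1 probe set, 211554_s_at, read 7.53, 7.54 and 7.31 on Dll4-Fc and 7.88, 7.67 and 7.58 in untreated cells. All of its Dll4-Fc arrays were lower (-0.25 ± 0.10, adjusted p = 0.143). The third, 211553_x_at, lay below the median signal and was higher by 0.15 ± 0.09 (adjusted p = 0.371). Its difference from the brightest APAF1 probe set was 0.35 ± 0.08 and passed (adjusted p = 0.0272), a call lost when any 1 array was left out (0.0533 to 0.104).

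CASP6, the executioner caspase that cleaves nuclear lamins, fell at both of its probe sets. Probe set 211464_x_at read 8.18, 7.97 and 8.33 on Dll4-Fc and 8.58, 8.61 and 8.48 in untreated cells. Probe set 209790_s_at read 7.82, 7.77 and 8.05 on Dll4-Fc and 8.61, 8.59 and 8.23 in untreated cells. In both, every Dll4-Fc array lay below every untreated array, and Dll4-Fc replicate 3 and untreated replicate 3 came closest. The differences over all probe sets were -0.40 ± 0.10 (adjusted p = 0.0277) and -0.60 ± 0.12 (1.51-fold lower, adjusted p = 0.0123). At the gene level 211464_x_at had an adjusted p of 0.0183. It did not pass without Dll4-Fc replicate 1 (0.0566), untreated replicate 1 (0.0565) or untreated replicate 2 (0.0648). Probe set 209790_s_at had an adjusted p of 0.053 with Dll4-Fc replicate 1 left out and of 0.0501 with untreated replicate 2 left out. Both CASP6 probe sets are shared, so no CASP6 value was left without shared probe sets. The genes whose signal followed CASP6 most closely over the 6 arrays were ADGRL1 (Pearson r = 0.997), TEDC2-AS1 (0.997) and LINC00933 (0.996). In all, 538 genes had r above 0.95, these among them. The difference between the groups is part of this likeness.

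Over all 43 probe sets 8 passed, 3 higher (all XIAP) and 5 lower (2 of CFLAR, 2 of CASP6 and 1 of CASP2), which is 18.6% against 16.5% of all probe sets. The share of the members is thus near the background. The median difference was -0.08, against -0.02 over all probe sets, and none of the 43 reached 2-fold. The groups did not overlap for 24 of 43 probe sets (55.8%), against 33.2% of all. That 33.2% was not matched for signal. Of the 34 above the median signal 22 did not overlap, and of the 9 below it 2 did not. All 8 that passed were among the 34 that lay above the median signal. The 9 below it differed by -0.09 to 0.22. The number that passed was 3 without Dll4-Fc replicate 1, 4 without untreated replicate 2 and 5 without either Dll4-Fc replicate 2 or untreated replicate 1. The share over all probe sets was also lower in these fits, at 10.5%, 10.9%, 10.6% and 12.2%, in the same order.

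**Figure D3:**
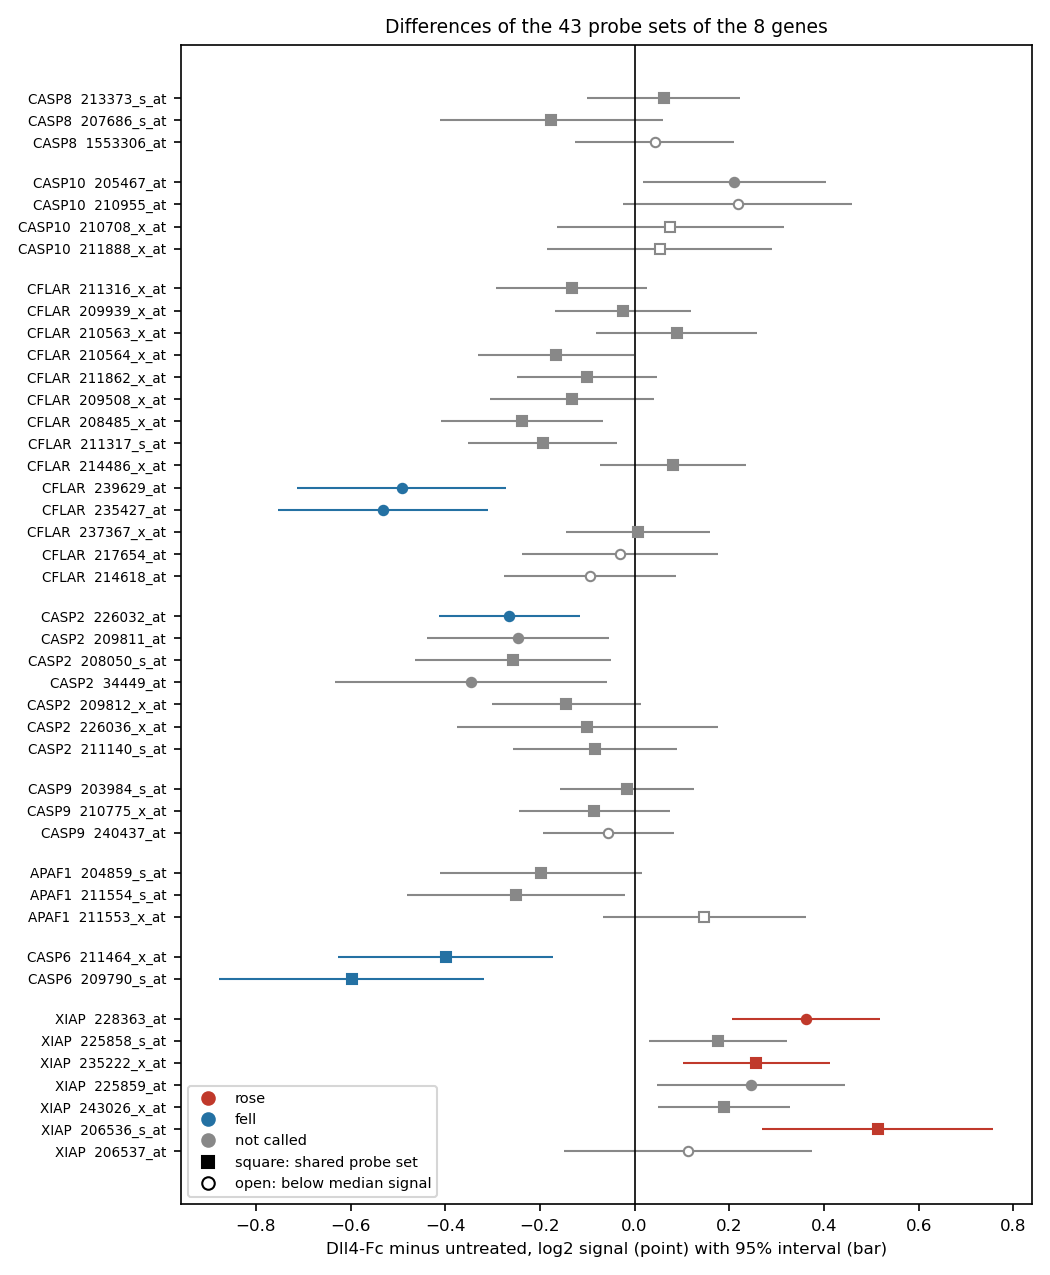
Dll4-Fc minus untreated log2 difference of each of the 43 probe sets with its 95% interval, grouped by gene and ordered by mean signal within a gene; red points rose, blue points fell, grey points did not pass, squares are shared probe sets and open symbols lie below the median signal. XIAP lies to the right of 0 and CASP2 and CASP6 to the left at all of their probe sets, while CFLAR probe sets spread from -0.53 to 0.09.

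Other genes around the caspases, on 5 lists with 41 measured members, went both ways: 9 rose and 8 fell, with a median of 0.00. That is 41.5% past the threshold, against 26.6% of all genes. With dim genes (below the median probe set signal) left out, 16 of 39 passed, against 43.8% of all genes. The lists were chosen with earlier results of these data known. The widest difference was that of XAF1, which encodes a binding partner that antagonizes XIAP. It read 10.98, 10.80 and 10.71 on Dll4-Fc and 8.16, 8.36 and 8.36 in untreated cells, a 5.79-fold rise (2.53 ± 0.09, adjusted p = 1.8e-06). All 3 XAF1 probe sets rose. NAIP, an inhibitor of apoptosis protein that also senses bacterial proteins, read 8.76, 8.61 and 8.60 on Dll4-Fc and 7.51, 7.60 and 7.61 in untreated cells, a 2.12-fold rise (1.08 ± 0.07, adjusted p = 2.76e-05), and all 3 of its probe sets rose. Without shared probe sets its difference was 0.44 (adjusted p = 0.0201). For both genes the groups were far apart.

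Of 8 measured genes of the inhibitor of apoptosis (IAP) family and XIAP partners, 2 rose and 1 fell, with a median of -0.06. The one that fell was BIRC5, encoding survivin, which also works in mitosis (-0.26 ± 0.06, adjusted p = 0.013). It fell at 2 of 4 probe sets and did not pass without shared probe sets (-0.10, adjusted p = 0.392). BIRC2, which encodes the ubiquitin ligase cIAP1, differed by -0.07 ± 0.05 (adjusted p = 0.427).

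Among 4 measured other caspase genes 2 rose, both inflammatory caspases, with a median of 0.40. CASP1, which processes interleukin 1 beta, read 11.24, 11.21 and 11.02 on Dll4-Fc and 10.42, 10.39 and 10.38 in untreated cells (0.76 ± 0.07, 1.69-fold, adjusted p = 0.000231). All 5 of its probe sets rose, and without shared probe sets the difference was 0.36 (adjusted p = 0.00389). CASP5 read 5.61, 5.87 and 5.90 on Dll4-Fc and 5.18, 5.12 and 4.51 in untreated cells, below the median signal there (0.85 ± 0.18, adjusted p = 0.0106). Their relative CASP4 differed by 0.04 ± 0.05 (adjusted p = 0.704).

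Of 7 measured genes for mitochondrial proteins released during apoptosis and their apoptosome partners 2 fell, with a median of -0.01: HTRA2, a protease that antagonizes IAPs (-0.28 ± 0.07, adjusted p = 0.0244), and ENDOG, a nuclease (-0.22 ± 0.06, adjusted p = 0.0396). With 1 array left out, both passed only where it was untreated replicate 3; otherwise the adjusted p was 0.056 to 0.094 for HTRA2 and 0.0536 to 0.131 for ENDOG. ENDOG also did not pass after cyclic loess (-0.16, adjusted p = 0.068), after median centring (adjusted p = 0.0596) or without shared probe sets (adjusted p = 0.0537). In the fit over all probe sets HTRA2 fell at 1 of 2 probe sets, and the only ENDOG probe set did not pass. CYCS, which encodes the cytochrome c that activates APAF1, differed by 0.13 ± 0.05 (adjusted p = 0.131), and DIABLO, a mitochondrial antagonist of XIAP, by -0.09 ± 0.05 (adjusted p = 0.291). CYCS passed with a trended robust prior (adjusted p = 0.00371) but gave -0.10 (adjusted p = 0.374) as the mean of its probe sets.

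Of 10 measured adaptor genes, which bring caspases to their activation platforms or block that step, 1 rose and 3 fell, with a median of -0.16. PEA15, a death effector domain protein that binds FADD and blocks caspase 8 activation, read 10.79, 10.86 and 10.82 on Dll4-Fc and 9.94, 10.04 and 9.96 in untreated cells (0.84 ± 0.06, 1.79-fold, adjusted p = 4.15e-05). FAF1, a FAS-binding factor, fell by 0.48 ± 0.05 (adjusted p = 0.000607) and at all 5 of its probe sets, and by 0.75 (adjusted p = 0.00718) without shared ones. CASP8AP2, a caspase 8 binding protein that also regulates histone transcription, fell by 0.35 ± 0.06 (adjusted p = 0.00379), and PYCARD, the inflammasome adaptor, by 0.28 ± 0.06 (adjusted p = 0.0114). CASP8AP2 fell at 1 of its 2 probe sets. CASP8AP2 did not pass without shared probe sets (-0.20, adjusted p = 0.219), nor PYCARD without Dll4-Fc replicate 1 (adjusted p = 0.053). FADD, the adaptor of death receptors, differed by 0.06 ± 0.06 (adjusted p = 0.493).

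Of 12 caspase substrates and nucleases 4 rose and 2 fell, with a median of 0.04. LMNA, the nuclear lamin cleaved by caspase 6, rose by 0.59 ± 0.06 (adjusted p = 0.000272), STK4, a kinase activated by caspase cleavage, by 0.54 ± 0.06 (adjusted p = 0.000546), and the actin regulators GSN and ROCK1 by 0.26 and 0.24. As the mean of their probe sets GSN and ROCK1 gave 0.06 (adjusted p = 0.489) and 0.07 (adjusted p = 0.483) and did not pass, nor did GSN without shared probe sets (0.09, adjusted p = 0.717). DFFA and DFFB, which encode the inhibitor and the nuclease of the caspase-activated DNase, fell by 0.29 ± 0.07 (adjusted p = 0.0183) and by 0.24 ± 0.07 (adjusted p = 0.0375). DFFA fell at 1 of 3 probe sets and gave -0.07 (adjusted p = 0.456) as the mean of its probe sets. It did not pass without Dll4-Fc replicate 1 (0.0617), Dll4-Fc replicate 2 (0.0688) or untreated replicate 2 (0.0569). The only DFFB probe set did not pass in the fit over all probe sets. DFFB did not pass without Dll4-Fc replicate 1 (0.114) or 2 (0.126) or untreated replicate 1 (0.111) or 2 (0.098), nor after cyclic loess (0.0678) or median centring (0.0549). PARP1, a DNA repair enzyme inactivated by caspase cleavage, differed by 0.11 ± 0.05 (adjusted p = 0.179) and passed with a trended robust prior (adjusted p = 0.0133).

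**Figure D4:**
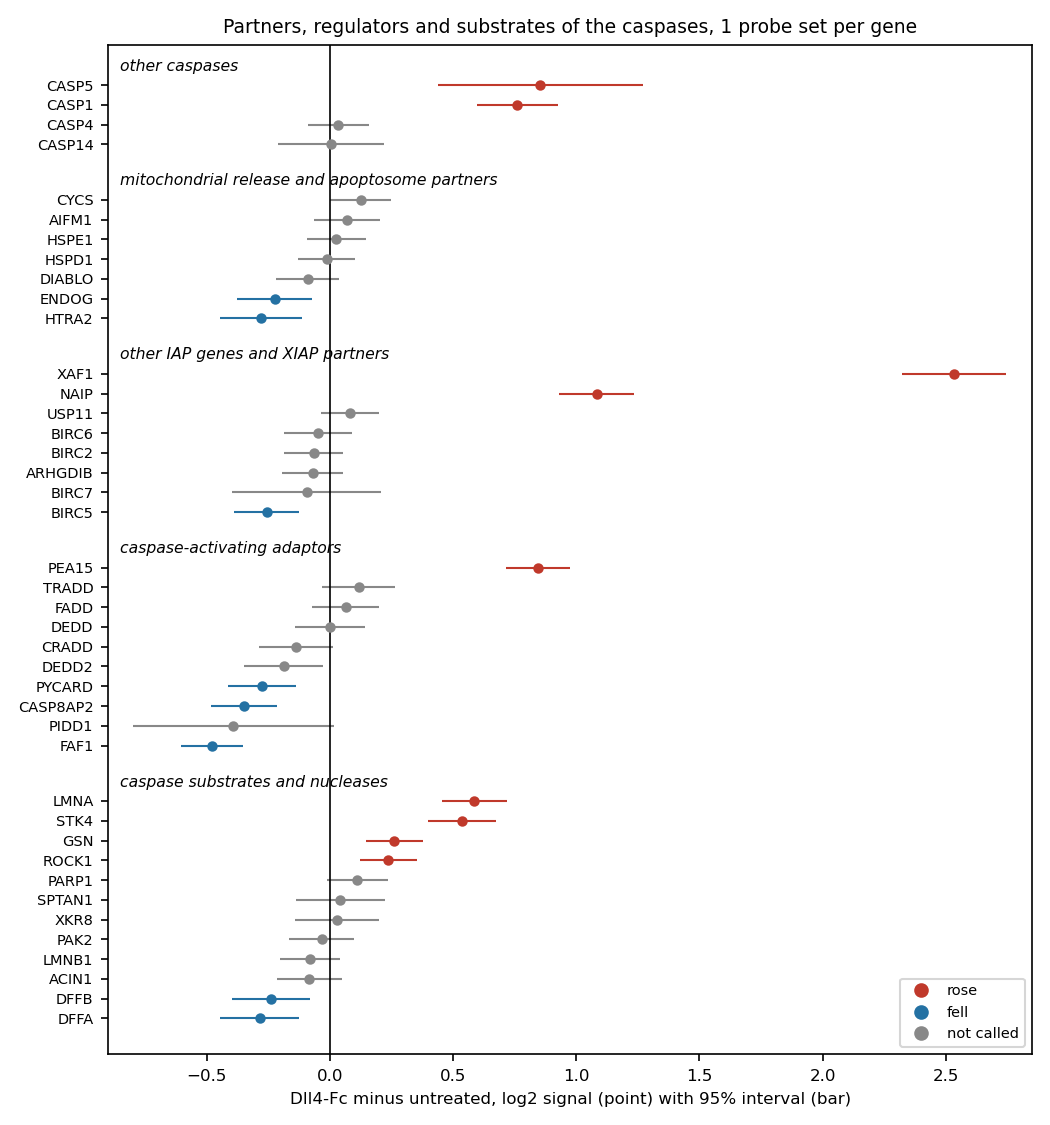
Dll4-Fc minus untreated log2 difference of the 41 measured genes of the 5 lists, 1 probe set per gene, with 95% intervals; red points rose, blue points fell and grey points did not pass. XAF1, NAIP, CASP5, PEA15 and CASP1 lie farthest to the right, at 2.53, 1.08, 0.85, 0.84 and 0.76.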

How the data were processed

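RNA of 6 THP1 samples was hybridized to 1 array each, after amplification with the NuGEN Ovation system, per the labels' protocols. The authors' deposited values are linear intensities, 1 for each array and probe set, from RMA (background correction, quantile normalization and probe summary), per the submitters' processing notes. RMA version: not given in the sources used here. Intensities ran from 5.87 to 28188, with array medians of 50.6 to 52.7, and were log2 transformed here with no floor. RMA compresses the changes of dim probe sets, and a change in total RNA is hidden by quantile normalization. Precision is limited by the number of arrays.

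The 62 control probe sets were left out, which left 54613. The platform annotation gave 41091 of them 1 gene symbol, 1801 several and 11721 none; the 8 genes had current symbols in the RefSeq table. The test was limma's moderated one (lmFit and eBayes, 2-sided, 4 residual degrees of freedom; limma 3.58.1, R 4.3.3). One fit covered all probe sets and another the brightest probe set of each of 19775 genes, each adjusted by Benjamini-Hochberg with 0.05 as the threshold. Values in every array are log2 signals, differences are Dll4-Fc minus untreated, and ± is the standard error unless SD is written. The procedure was tested on simulated data. The members, the 5 lists and the tests were chosen with earlier results of these data known. Named were all 8 genes, every member probe set that passed, up to 3 passing genes per list with the largest difference, and 8 further genes fixed by name, of which those with a value are given; CASP4, PYCARD, GSN, ROCK1, DFFB and member probe sets that did not pass were added after their values were seen. Alternatives were a replicate block, cyclic loess, median centring, a trended robust prior, array weights, leaving out dim or shared probe sets, the mean of a gene's probe sets and leaving out each array.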

Additional observations from a re-analysis of the deposited data

How the results depend on the processing

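At the gene level XIAP and CASP2 kept their direction and their call under every alternative run. In the fit over all probe sets, the brightest CASP2 probe set, 226032_at, lost its call under several. These were cyclic loess (adjusted p = 0.0619), the replicate block (0.0828) and leaving out any 1 array (0.0501 to 0.0986). The number of members' probe sets that passed was 8 (16.5% over all probe sets), and 5 with the replicate block (11.9%), 13 of 34 without dim probe sets (36.1%), 4 of 14 without shared ones (14.1%) and 3 to 8 with 1 array left out (10.5% to 17.2%). Percentages are the shares of all probe sets that passed in the same fit. The number of members' genes that passed stayed between 2 and 4, while the share over all genes ran from 18.4% to 43.8%. Without shared probe sets 3 of 6 member genes passed (22.5% of all genes). For the 5 lists the number was 17 of 41 (26.6% of all genes), and 9 of 30 without shared probe sets. With 1 array left out it was 12 to 18 of 41 (18.4% to 27.6% of all genes). The 3 differences between probe sets of a gene that passed became 0 with the replicate block (limma, 3 at an unadjusted p under 0.05), 1 with cyclic loess and 0 to 1 with 1 array left out (4 to 6 at an unadjusted p under 0.05). That test could not be made without shared probe sets, since the brightest probe sets are often shared. CASP9 changed sign with cyclic loess (0.051) and without Dll4-Fc replicate 1 (0.0035, lowest -0.034 with another array left out), CASP8 (-0.024) and CYCS (-0.096) with the mean of probe sets; none of these values passed, and the cause was not tested. The alternatives for differences between probe sets were chosen after seeing the data. Deviations of same-numbered arrays from their group means correlated at 0.01, -0.21 and -0.15, and not every array correlated best with its own number. These values gave no sign that the replicate numbers pair the arrays. With 3 arrays per group they cannot exclude a pairing. The labels do not give a pairing, and replicate block fits stand here only, with 3 member genes and 12 list genes past the threshold.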
